A study of Mus musculus with 12 samples.

Results

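The transcripts described here are those of 8 matrix metalloproteinases (Mmp2, Mmp3, Mmp7, Mmp8, Mmp9, Mmp10, Mmp13 and Mmp14), of the metalloproteinase inhibitor Timp1 and of the aggrecanase Adamts4. They were taken by gene symbol through the accession of each array probe, which gave 13 probes for the 10 genes, and all 10 were among the 23244 genes tested. RNA from the colon of male C57BL/6J mice had been measured on 12 Agilent 1-colour arrays. The mice were wild type (WT), knockout for ATF6a (ATF6aKO) or knockout for ATF6b (ATF6bKO), and within each genotype were either untreated (UT) or given 3% dextran sulfate sodium (DSS) in the drinking water for 3 days, with 2 arrays in each of the 6 groups. DSS injures the colonic epithelium and brings on colitis, and ATF6a and ATF6b are transcription factors that are held in the endoplasmic reticulum membrane and released when unfolded proteins accumulate. The labels give neither the age of the mice nor how the knockouts were made. Whether both arrays of a group stem from different mice is not stated either, so the p-values reflect the spread among these samples alone, and that spread may be technical.

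For the 4 WT arrays the labels contradict each other. The titles call 2 of them DSS and the other 2 UT, while the descriptions and treatment fields of the same samples say the reverse. WT groups are named here as "titled UT" and "titled DSS", and every signed WT difference turns its sign when the descriptions are applied to the scanner files used here. In the deposited value table the WT columns hold the arrays of the other WT group. There the descriptions give the same direction as the titles do with the scanner files. The labels of the 8 knockout arrays do not conflict, and the comparison of DSS with UT over both knockouts therefore leaves WT out.

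Matrix metalloproteinases are zinc enzymes that cut collagens, laminins, proteoglycans and many cytokines outside the cell, and most are secreted as inactive proenzymes. The tissue inhibitors of metalloproteinases, of which Timp1 is the most readily induced, bind their active sites. In the inflamed gut, stromelysins and collagenases are known from fibroblasts and macrophages, Mmp8 and Mmp9 also from the granules of neutrophils, and Mmp7 from epithelial cells, among them the Paneth cells of the small intestine.

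Of the 10 genes, 5 (Mmp13, Mmp3, Mmp10, Mmp8 and Mmp7, in that order) lie in 1 run of 10 matrix metalloproteinase genes on mouse chromosome 9, with 0 other protein-coding genes between them in the RefSeq annotation. The other 5 genes of the run are Mmp12, Mmp1b, Mmp1a, Mmp27 and Mmp20, of which only Mmp12 was among the genes tested. Several genes of this run have a TATA box and a site for AP-1, the Fos and Jun transcription factor, close to their start. The 150 bases before the start of the 5 genes are printed below because these neighbours include Mmp3 and Mmp10, which rose with DSS in both knockouts, and Mmp7, which was called lower in ATF6aKO. All are on the plus strand, from RefSeq, build GRCm38.p6, and the capitals mark AP-1 motifs (TGANTCA), the ETS-type PEA3 motif (AGGAAG, or CTTCCT on the other strand) and TATAAA; matches farther upstream are not shown.
Mmp13, chr9:7272364-7272513: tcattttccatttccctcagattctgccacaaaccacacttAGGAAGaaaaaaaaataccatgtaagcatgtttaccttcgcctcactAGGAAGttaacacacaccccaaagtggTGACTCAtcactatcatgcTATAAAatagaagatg
Mmp3, chr9:7445672-7445821: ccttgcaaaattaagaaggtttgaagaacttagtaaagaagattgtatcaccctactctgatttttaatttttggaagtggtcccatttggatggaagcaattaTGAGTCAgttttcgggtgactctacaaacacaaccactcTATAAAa
Mmp10, chr9:7502192-7502341: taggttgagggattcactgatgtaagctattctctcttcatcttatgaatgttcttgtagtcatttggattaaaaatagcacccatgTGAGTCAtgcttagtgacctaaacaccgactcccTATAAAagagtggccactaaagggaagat
Mmp8, chr9:7558279-7558428: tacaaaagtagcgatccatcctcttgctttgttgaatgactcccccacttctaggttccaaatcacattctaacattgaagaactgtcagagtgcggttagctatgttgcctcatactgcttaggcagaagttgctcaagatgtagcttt
Mmp7, chr9:7691940-7692089: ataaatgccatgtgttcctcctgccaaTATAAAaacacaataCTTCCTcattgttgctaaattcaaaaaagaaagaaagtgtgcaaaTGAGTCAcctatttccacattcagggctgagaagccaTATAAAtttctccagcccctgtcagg

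Promoter windows were found for 7 of the 10 genes (8 windows, since Mmp7 has 2 annotated starts, of which the upstream one is printed), and none was found for Mmp2, Mmp9 and Adamts4. Over the 250 bases before the start, on both strands, TGANTCA was present for 4 of the 7 genes (Mmp3, Mmp10, Mmp13 and Mmp7) and in 6.75% of all 32851 windows of that length. It began 46 bases before the start in Mmp3, 63 in Mmp10, 35 in Mmp13 and 63 in Mmp7. AGGAAG was present for 6 of 7 genes and in 29.5% of windows, and TATAAA for 4 of 7 and in 12.4%. The letters CCACG, which are the ATF6 side of the endoplasmic reticulum stress response element, were present for 3 of 7 genes (Mmp7, Mmp14 and Timp1) and in 28.3% of windows. In Mmp7 they were only in the window that is not printed. Counted by windows, as the shares are, TGANTCA was in 4 of the 8, AGGAAG in 7, TATAAA in 4 and CCACG in 3. No motif searched is contained in another. These are matches of letters, and no binding was measured.

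All values are log2 levels, the log2 signal of a probe minus the log2 75th percentile of its own array, so that 0 is the 75th percentile. Levels are compared between arrays for 1 probe at a time, never between genes. Between 65.5% and 76.3% of probes were well above background on an array, and no probe of the 10 genes was saturated. The number of arrays limits the precision. The median absolute difference between the 2 arrays of a group was 0.484 over all genes in WT titled UT and 0.169 to 0.217 in the other 5 groups. Atf6 was at -3.13 ± 0.13 and -3.16 ± 0.10 (SD, n = 2) in ATF6aKO UT and DSS and between 0.60 and 1.22 on the 8 other arrays, and Atf6b was well above background on 1 of 4 ATF6bKO arrays and on 8 of 8 others. Each genotype was scanned in a run of its own, so that genotype and scan run cannot be told apart, whereas each DSS comparison lies within 1 run. All 10 epithelial markers and all 6 colonocyte markers tested were well above background on every array.

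DSS went with higher levels of most of these transcripts in both knockouts. Over both, 8 of the 10 genes rose and 0 fell (limma, Benjamini-Hochberg adjusted p under 0.05 over all genes), where 29.1% of all genes tested were called, 13.3% higher and 15.8% lower. The median difference of the 10 genes was 2.16, against -0.01 over all genes. All 4 DSS arrays lay above all 4 UT arrays for the 8 genes that rose, as they did for 11.5% of all genes. Among them, Mmp8 passed the filter only through the DSS groups of the knockouts, where it was high. With probes required above background on at least 6 arrays Mmp8 was not tested, and 7 genes were called over both knockouts, beside 31.8% of all genes. Within ATF6aKO, 7 rose and 1 fell (6.33% of all genes called, 2.88% higher and 3.45% lower), and within ATF6bKO 7 rose and 0 fell (12.9% called, 5.7% higher and 7.21% lower). In bulk tissue, fewer or more cells of a type and less or more RNA per cell cannot be told apart. The ATF6aKO count rests on few arrays: in place of 8 genes called it was 5 when the second DSS array of that genotype was left out, 2 when the first was, 3 without the first UT array and 1 without the second. The count over all genes fell in the same omissions, from 1472 to 445, 183, 189 and 212. The count of the 10 genes was also 2 when the 4 ATF6aKO arrays were fitted alone, beside 2.42% of all genes. The calls lost in that fit had adjusted p from 0.0515 to 0.0726. Mmp3 was the gene called in ATF6aKO under all 12 omissions of 1 array.

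**Figure D1:**
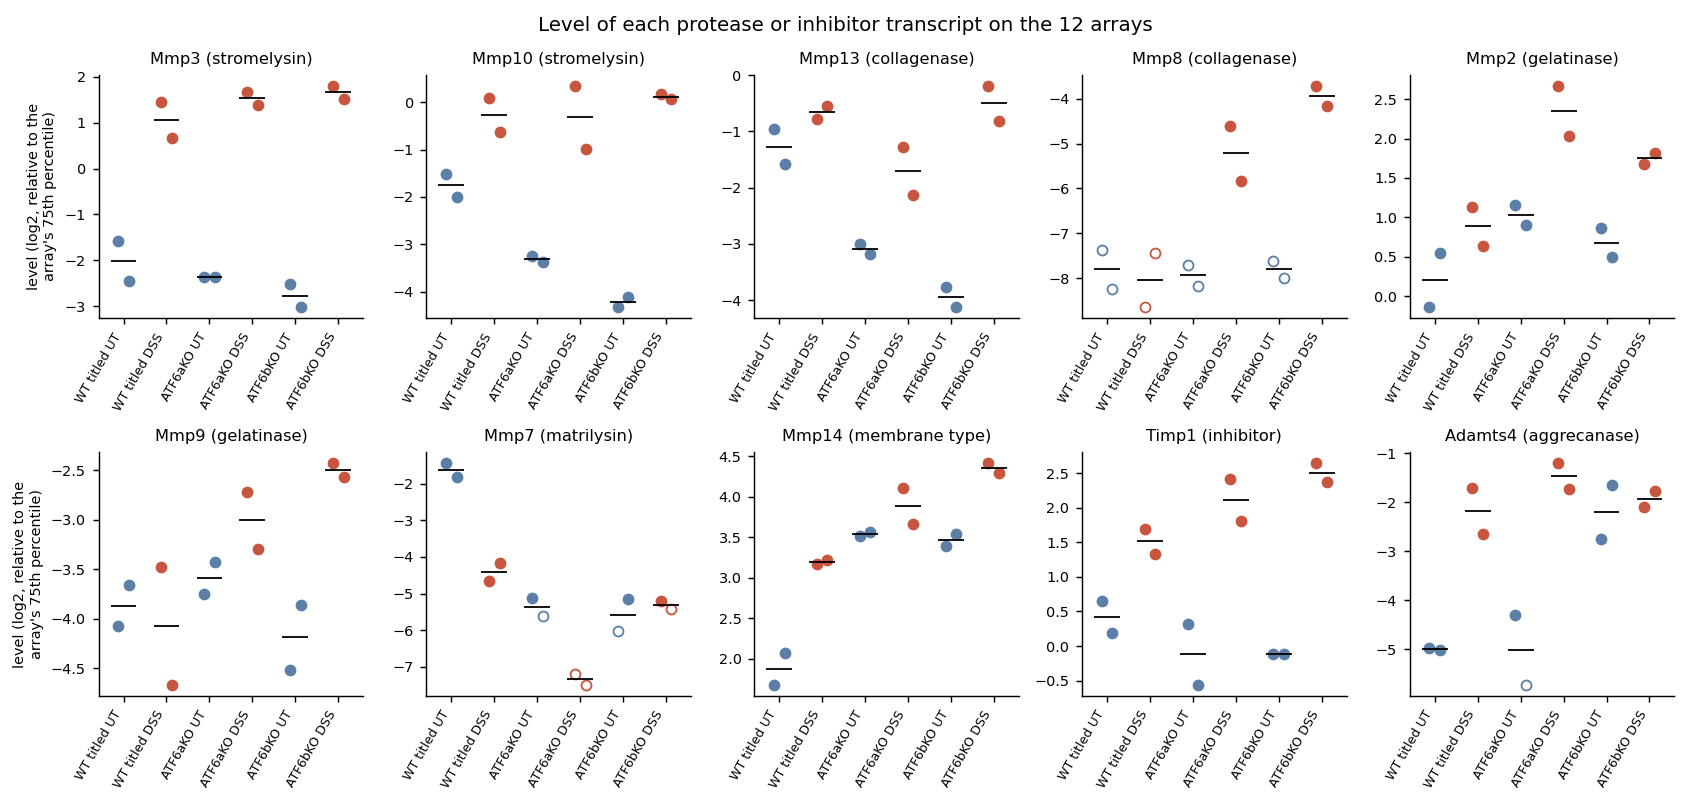
Log2 level of each of the 10 transcripts relative to the array's 75th percentile (y axis, own scale for each gene) on the 2 arrays of each of the 6 groups (x axis); points are arrays, blue for UT and red for DSS as titled, open where the probe was not well above background, and bars are group means. Mmp3 lies at 1.39 to 1.81 on the 4 DSS arrays of the knockouts and at -3.02 to -2.36 on their 4 UT arrays, and Mmp8 is open in all groups except the DSS groups of the 2 knockouts.

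The stromelysins Mmp3 and Mmp10 cut proteoglycans, laminin and fibronectin and activate other proenzymes of the family. Mmp3 was at -2.37 and -2.36 on the ATF6aKO UT arrays and at 1.68 and 1.39 on the DSS arrays, and in ATF6bKO at -2.52 and -3.02 against 1.81 and 1.52. The UT and DSS arrays were far apart in both genotypes, and DSS arrays of the 2 genotypes lay close together. Mmp3 rose by 3.90 (SE 0.35, adjusted p = 0.00337), 15.0-fold, in ATF6aKO, and by 4.44 (SE 0.35, adjusted p = 0.000712), 21.7-fold, in ATF6bKO. Over both knockouts the difference was 4.17 (SE 0.17, adjusted p = 0.000243).

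Mmp10 was at -3.25 and -3.37 in ATF6aKO UT and at 0.35 and -0.98 in DSS. In ATF6bKO it was at -4.33 and -4.11 against 0.18 and 0.06. The 2 ATF6aKO DSS arrays differed by more than those of any other knockout group for this gene, yet both stood above every UT array. Mmp10 rose by 2.99 (SE 0.41, adjusted p = 0.00902) in ATF6aKO and by 4.34 (SE 0.41, adjusted p = 0.00131) in ATF6bKO. The ATF6aKO call was lost without ATF6aKO UT replicate 1 (3.06, adjusted p = 0.0533) or replicate 2 (2.93, adjusted p = 0.0552).

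The collagenases Mmp13 and Mmp8 cleave fibrillar collagen, Mmp13 being the main collagenase of mouse connective tissue cells and Mmp8 that of neutrophils. Mmp13 was at -3.00 and -3.17 in ATF6aKO UT and at -1.28 and -2.13 in DSS, and in ATF6bKO at -3.77 and -4.13 against -0.18 and -0.81. The lowest UT values and the highest DSS values of the knockouts were both in ATF6bKO. Mmp13 rose by 1.38 (SE 0.34, adjusted p = 0.049) in ATF6aKO, a call that was lost with quantile normalization (1.26, adjusted p = 0.0772), with median scaling (1.23, adjusted p = 0.0716) and under 10 of the 12 omissions of 1 array (adjusted p up to 0.313, at 0.95 without ATF6aKO DSS replicate 1). In ATF6bKO it rose by 3.45 (SE 0.34, adjusted p = 0.00145), 10.9-fold, and over both by 2.41 (SE 0.45, adjusted p = 0.00945).

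Mmp8 was not well above background on any UT array or any WT array. Its measured levels were -7.70 and -8.17 in ATF6aKO UT and -7.61 and -7.98 in ATF6bKO UT. On the DSS arrays it was at -4.60 and -5.83 in ATF6aKO and at -3.71 and -4.16 in ATF6bKO, well above background on all 4. Mmp8 thus came above background only on the 4 DSS arrays of the knockouts, among the 12, and it passed the filter through those groups alone. Its rise is therefore not independent of the filter. Because the UT values are bounds, the fold is at least 1.76 in ATF6aKO (adjusted p = 0.021), at least 3.21 in ATF6bKO (adjusted p = 0.00294) and at least 2.38 over both (adjusted p = 0.00196). Here "at least" sets the DSS mean against the lowest signal well above background on each UT array. It is thus a bound on this scale only, and the adjusted p-values belong to the measured differences. With normexp background correction the difference was 0.59 (adjusted p = 0.162) in ATF6aKO and 0.61 (adjusted p = 0.142) in ATF6bKO, neither past the threshold. Both were smaller than the bounds just given. The ATF6aKO call was also lost without ATF6aKO UT replicate 1 (adjusted p = 0.081), UT replicate 2 (adjusted p = 0.123) or DSS replicate 1 (adjusted p = 0.147).

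The gelatinases Mmp2 and Mmp9 digest denatured collagen and basement membrane collagen. Mmp2, made by fibroblasts and other stromal cells, was at 1.16 and 0.91 in ATF6aKO UT and at 2.67 and 2.03 in DSS, and in ATF6bKO at 0.87 and 0.49 against 1.68 and 1.82. The shift was smaller than that of the stromelysins, and all 4 DSS arrays lay above all 4 UT arrays of the knockouts, as for 11.5% of all genes. Over both knockouts Mmp2 rose by 1.19 (SE 0.17, adjusted p = 0.00411), 2.29-fold. Within ATF6aKO it rose by 1.32 (SE 0.31, adjusted p = 0.042), lost with median scaling (1.17, adjusted p = 0.0527) and under 8 of 12 omissions (0.996 to 1.64). Within ATF6bKO the difference was 1.07 (SE 0.31, adjusted p = 0.0543), and it passed with quantile normalization (1.11, adjusted p = 0.0469).

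Mmp9 was at -3.75 and -3.43 in ATF6aKO UT and at -2.72 and -3.30 in DSS, and in ATF6bKO at -4.51 and -3.86 against -2.43 and -2.57. In ATF6aKO the groups were separated by only 0.13. Mmp9 rose in ATF6bKO by 1.69 (SE 0.40, adjusted p = 0.0266), whereas the ATF6aKO difference was 0.58 (SE 0.40, adjusted p = 0.419). Over both knockouts it rose by 1.13 (SE 0.28, adjusted p = 0.0249). The pooled call was lost when either ATF6bKO DSS array was left out (0.996 without replicate 1, 1.05 without replicate 2), and likewise without replicate 1 of ATF6aKO UT (1.18) or of ATF6aKO DSS (1.13), with adjusted p up to 0.0699. The ATF6bKO call was lost without either of its DSS arrays (1.62 and 1.76) or without its UT replicate 1 (1.36, adjusted p = 0.143). The second Mmp9 probe, above background on 9 of 12 arrays, gave 0.72 in ATF6aKO and 1.72 in ATF6bKO.

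Mmp7 (matrilysin), a small epithelial metalloproteinase that activates antimicrobial peptides, was the exception in direction. It was at -5.11 and -5.60 in ATF6aKO UT and at -7.20 and -7.49 in DSS, where neither array was well above background and 1 of the 2 UT arrays was. In ATF6bKO it was at -6.02 and -5.15 in UT and at -5.20 and -5.43 in DSS, with 1 of 2 arrays above background in each group, and the groups overlapped. Mmp7 was called lower in ATF6aKO (measured difference -1.99, adjusted p = 0.0146). With the DSS values raised to the lowest signal well above background on each array, the fold was 1.64. As 1 of the 2 UT values was itself not well above background, this fold is no bound on the difference. With normexp background correction that difference was 0.031 (adjusted p = 0.934), and the call was lost when any 1 of the 4 ATF6aKO arrays was left out (adjusted p 0.0524 to 0.0856). In ATF6bKO the difference was 0.27 (SE 0.32, adjusted p = 0.637), and over both knockouts -0.86 (SE 0.48, adjusted p = 0.214).

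Mmp14, the membrane-anchored enzyme that activates pro-Mmp2 at the cell surface, was at 3.52 and 3.56 in ATF6aKO UT and at 4.11 and 3.67 in DSS. In ATF6bKO it was at 3.39 and 3.54 against 4.42 and 4.29. Mmp14 rose by 0.89 (SE 0.20, adjusted p = 0.023) in ATF6bKO, and the ATF6aKO difference was 0.35 (SE 0.20, adjusted p = 0.336). Over both knockouts it rose by 0.62 (SE 0.15, adjusted p = 0.0249), 1.54-fold. The pooled call was lost when any 1 of the 4 ATF6bKO arrays (0.53 to 0.60) or the first ATF6aKO DSS array (0.58) was left out, and the ATF6bKO call without any 1 of its own 4 arrays (adjusted p 0.0618 to 0.118). With median scaling the pooled difference was 0.55 (adjusted p = 0.0518), and with the mean of the 2 Mmp14 probes the ATF6bKO difference was 0.70 (adjusted p = 0.0931). The second Mmp14 probe, above background on all 12 arrays, gave 0.70 in ATF6aKO and 0.51 in ATF6bKO. The order of the 2 knockouts was thus reversed with that probe.

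Timp1, the secreted inhibitor, was at 0.32 and -0.56 in ATF6aKO UT and at 2.41 and 1.81 in DSS. In ATF6bKO it was at -0.11 and -0.11 against 2.64 and 2.37. All 4 DSS arrays lay above all 4 UT arrays of the knockouts, as for 11.5% of all genes. The inhibitor was thus higher in the same samples as most of the proteases. Timp1 rose by 2.23 (SE 0.33, adjusted p = 0.0108), 4.68-fold, in ATF6aKO and by 2.61 (SE 0.33, adjusted p = 0.00247), 6.12-fold, in ATF6bKO. The second Timp1 probe, above background on all 12 arrays, gave 2.28 and 2.74. The ATF6aKO call was lost without ATF6aKO UT replicate 2 (1.79, adjusted p = 0.0578) or ATF6aKO DSS replicate 1 (1.93, adjusted p = 0.0757).

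Adamts4, which cuts aggrecan, versican and other large proteoglycans, passed the test in ATF6aKO and not in ATF6bKO, and the test of that difference, given further on, did not pass. It was at -4.29 and -5.72 in ATF6aKO UT, with 1 of 2 arrays above background, and at -1.20 and -1.73 in DSS. In ATF6bKO it was at -2.74 and -1.64 in UT against -2.09 and -1.77 in DSS. The ATF6bKO UT arrays were already near the level of the DSS arrays and overlapped them. Adamts4 rose by 3.54 (SE 0.52, adjusted p = 0.0108) in ATF6aKO and differed by 0.26 (SE 0.52, adjusted p = 0.795) in ATF6bKO. The ATF6aKO call was lost without ATF6aKO UT replicate 2 (2.83, adjusted p = 0.0566) or ATF6aKO DSS replicate 1 (3.28, adjusted p = 0.0771). Over both knockouts the difference was 1.90 (SE 0.72, adjusted p = 0.0878), which became 2.45 (adjusted p = 0.0361) without ATF6bKO UT replicate 2 and 1.01 (adjusted p = 0.0189) with normexp background correction.

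**Figure D2:**
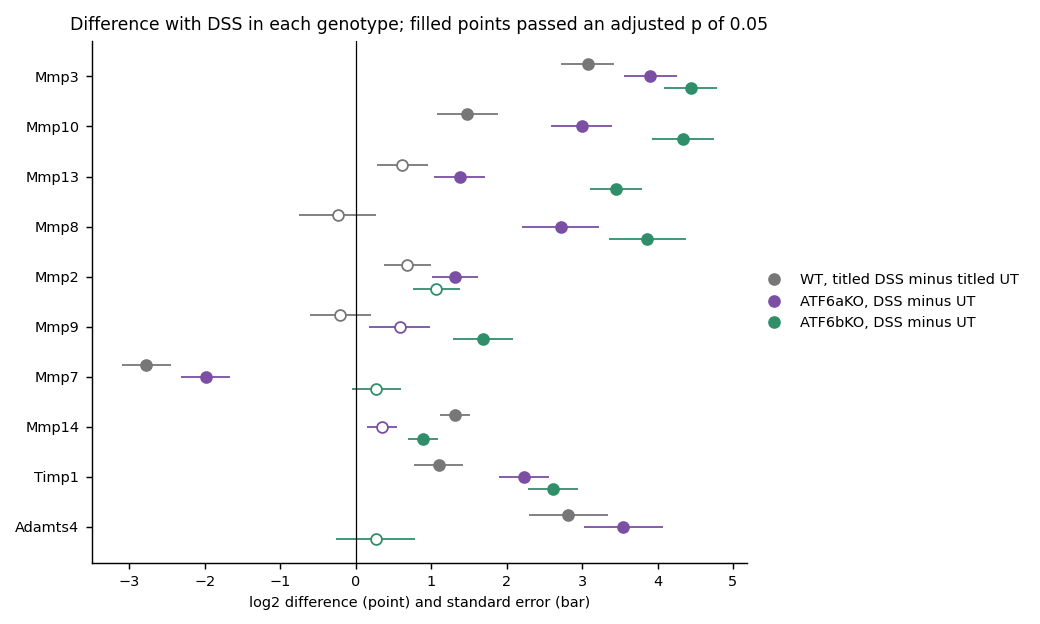
Log2 difference between DSS and UT (x axis) with its standard error for each of the 10 genes (y axis) in WT by titles (grey), ATF6aKO (purple) and ATF6bKO (green); filled points passed an adjusted p of 0.05 in limma. Mmp3 is filled at 3.07, 3.90 and 4.44, and Adamts4 is filled at 2.82 in WT and 3.54 in ATF6aKO and open at 0.26 in ATF6bKO.

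The test of the difference itself, the ATF6aKO response to DSS minus the ATF6bKO response, called 0 of the 10 genes and 0 of all genes (0.0% called in limma), with 4 of the 10 and 1854 genes (7.98%) at an unadjusted p under 0.05. Adamts4 had the response more positive in ATF6aKO, by 3.28 (SE 0.74, adjusted p = 0.317). The other 3 were more negative there, Mmp7 by -2.26 as measured (adjusted p = 0.301), Mmp13 by -2.07 (SE 0.48, adjusted p = 0.324) and Mmp10 by -1.35 (SE 0.58, adjusted p = 0.615). The size for Mmp7 rests on ATF6aKO DSS arrays that were not well above background, and no bound is given for the difference there. For these 4 genes the sign was the same under every alternative run, and none passed the threshold under any. With normexp background correction the 4 sizes were smaller, 1.33 for Adamts4, -0.21 for Mmp7, -1.03 for Mmp13 and -0.30 for Mmp10.

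In WT, the arrays titled DSS were set against those titled UT. By titles, 5 of the 10 genes rose and 1 fell, where 31.8% of all genes were called, 14.8% higher and 17.0% lower, and by the descriptions 1 rose and 5 fell. The response over both knockouts minus this WT difference, a test added after the data had been seen, called 5 of the 10 genes by titles (19.9% of all genes) and 9 by descriptions (36.7%). Mmp3 was at -1.58 and -2.46 on the arrays titled UT and at 1.45 and 0.66 on those titled DSS, a difference of 3.07 (SE 0.35, adjusted p = 0.00172). Mmp10 was at -1.51 and -1.99 against 0.08 and -0.63, a difference of 1.48 (SE 0.41, adjusted p = 0.0254). The arrays titled DSS were the higher ones for both stromelysins, as the DSS arrays were in the knockouts.

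Adamts4 was at -4.98 and -5.01 on the WT arrays titled UT and at -1.71 and -2.64 on those titled DSS (difference 2.82, SE 0.52, adjusted p = 0.00655). Mmp14 was at 1.68 and 2.07 against 3.17 and 3.22 (1.31, SE 0.20, adjusted p = 0.00343). Timp1 was at 0.65 and 0.18 against 1.70 and 1.33 (1.097, SE 0.33, adjusted p = 0.0341). For these 3 genes both arrays titled DSS lay above both titled UT, as they did for 30.2% of all genes. The Timp1 call was lost when any 1 of the 4 WT arrays was left out (0.86 to 1.33), and the Mmp10 call without the first array titled DSS (1.12) or either array titled UT (1.72 and 1.24).

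Mmp7 ran the other way in WT, at -1.44 and -1.82 on the arrays titled UT and at -4.65 and -4.17 on those titled DSS, a difference of -2.78 (SE 0.32, adjusted p = 0.0018). The arrays titled UT held the highest Mmp7 levels of all 12. On the same arrays the summed level of 6 colonocyte markers was 805.5 to 1052 times the 75th percentile, against 366.8 to 482.4 on the arrays titled DSS, and that of 4 Paneth markers was 331.4 to 596.4 against 137.1 to 191.3. Of the 6 colonocyte markers, Fabp2 fell (-1.95, adjusted p = 0.0133), Car4 rose (1.05, adjusted p = 0.0156) and 4 were not called, and of the 4 Paneth markers 3 fell. Over all genes 14.8% were called higher and 17.0% lower by titles. In the knockouts the colonocyte sum was 140.4 to 362.2 and the Paneth sum 313.4 to 461.9. Their part in the Mmp7 difference was not tested.

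The remaining 4 genes were not called in WT. Mmp13 was at -0.96 and -1.58 on the arrays titled UT and at -0.77 and -0.54 on those titled DSS (0.62, SE 0.34, adjusted p = 0.195), all 4 above the UT arrays of both knockouts. Mmp2 was at -0.14 and 0.55 against 1.14 and 0.64 (0.68, SE 0.31, adjusted p = 0.122). Mmp9 was at -4.08 and -3.66 against -3.48 and -4.67 (-0.20, SE 0.40, adjusted p = 0.723), and its second probe gave 0.79. Mmp8 was at -7.36 and -8.23 against -8.64 and -7.44, with no array of the 4 well above background.

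The genotypes were compared with UT and DSS averaged, which does not turn on the WT labels. Of the 10 genes, 3 were higher and 3 lower in ATF6aKO than in WT (50.4% of all genes called, 21.6% higher and 28.9% lower), and 4 were higher and 3 lower in ATF6bKO (50.6% called, 24.5% higher and 26.0% lower). These counts stand near the share called among all genes. Mmp7 was lower in ATF6aKO (measured difference -3.33, adjusted p = 5e-05) and in ATF6bKO (-2.43, adjusted p = 0.000149). It passed the filter only through the WT groups, where it was high, so this difference is not independent of the filter. Only 1 of 4 ATF6aKO arrays and 2 of 4 ATF6bKO arrays were well above background for it, against 4 of 4 in WT, so these sizes rest in part on values below background. With normexp background correction the ATF6bKO difference in Mmp7 was -0.15 (adjusted p = 0.373). Mmp14 was higher, by 1.18 (SE 0.14, adjusted p = 0.000427) and 1.37 (SE 0.14, adjusted p = 0.000215). Mmp13 was lower by -1.43 (adjusted p = 0.00173) and -1.26 (adjusted p = 0.00306), and Mmp2 higher by 1.15 (adjusted p = 0.00304) and 0.67 (adjusted p = 0.0314). By titles the Mmp13 means in ATF6bKO and WT were -3.95 and -1.27 in UT, and -0.50 and -0.66 in DSS. The ATF6bKO call for Mmp2 was lost under 5 of 12 omissions (0.50 to 0.70 in those 5).

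Mmp10 was lower in the knockouts by -0.80 (adjusted p = 0.0448) and -1.04 (adjusted p = 0.0163). By titles this lay in the UT groups, with means of -3.31 in ATF6aKO, -4.22 in ATF6bKO and -1.75 in WT. The DSS means of Mmp10 were -0.32, 0.12 and -0.27. The ATF6aKO call for Mmp10 was lost under 9 of 12 omissions, with values from -1.14 to -0.47. In the series value table the 2 differences were -0.14 (adjusted p = 0.693) and -0.39 (adjusted p = 0.278). Mmp8 was higher in ATF6aKO (adjusted p = 0.0143) and in ATF6bKO (adjusted p = 0.00206), where 2 of 4 arrays of each knockout and 0 of 4 WT arrays were above background. These calls rest in part on values below background, and Mmp8 passed the filter only through the knockout DSS groups. Adamts4 was higher in ATF6bKO by 1.53 (SE 0.37, adjusted p = 0.009). By titles its means in ATF6bKO and WT were -2.19 and -5.00 in UT, and -1.93 and -2.18 in DSS. When the 8 arrays of 2 genotypes were fitted alone with titled treatment as a term, the ATF6bKO calls were lost for Mmp13 (adjusted p = 0.12), Mmp2 (adjusted p = 0.0605), Mmp8 (adjusted p = 0.0872), Mmp10 (adjusted p = 0.185) and Adamts4 (adjusted p = 0.0687), and the ATF6aKO calls for Mmp8 (adjusted p = 0.125) and Mmp10 (adjusted p = 0.15). Genotype cannot be told apart from scan run here, and the WT arrays also carry another version of the probe annotation. Between the 2 knockouts 0 of the 10 genes were called (5.48% of all genes), with 2 at an unadjusted p under 0.05, Mmp7 (-0.90, adjusted p = 0.0577) and Adamts4 (-1.18, adjusted p = 0.1). With normexp background correction 5 of the 10 were called, beside 43.3% of all genes.

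The order of group means places Mmp3 highest in ATF6bKO DSS (1.67 ± 0.20, SD, n = 2), then ATF6aKO DSS (1.54 ± 0.20) and WT titled DSS (1.06 ± 0.56), each nearer to the next than the larger of their 2 SDs, and below them WT titled UT (-2.02 ± 0.63), ATF6aKO UT (-2.36 ± 0.01) and ATF6bKO UT (-2.77 ± 0.35). Timp1 has the same order in its upper 3 groups, 2.50 ± 0.20, 2.11 ± 0.43 and 1.52 ± 0.26. For Adamts4 ATF6bKO UT (-2.19 ± 0.78) stands among the DSS groups (-1.46 ± 0.37 in ATF6aKO DSS, -1.93 ± 0.22 in ATF6bKO DSS and -2.18 ± 0.66 in WT titled DSS), and only WT titled UT (-5.00 ± 0.02) and ATF6aKO UT (-5.00 ± 1.01) lie lower.

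Other members of the same families moved with DSS as well. Of 15 other matrix metalloproteinases listed, 7 were tested, and over both knockouts 5 rose and 0 fell (median 1.04, against -0.01 over all genes, of which 13.3% were called higher and 15.8% lower). Mmp25, a membrane-anchored enzyme of leukocytes, rose at least 2.81-fold (adjusted p = 0.0026). Mmp25 and Mmp12, both among those that rose, passed the filter only through DSS groups (for WT, as titled). Mmp19 rose by 1.26 (SE 0.19, adjusted p = 0.0045), Mmp11, a stromal enzyme also called stromelysin-3, by 1.04 (SE 0.11, adjusted p = 0.0018), and the membrane-type Mmp15 by 0.34 (SE 0.09, adjusted p = 0.0344). Of 9 other inhibitors tested, 5 rose and 0 fell (median 0.62). Serpina3n, a serine protease inhibitor, rose by 2.56 (SE 0.36, adjusted p = 0.0038), Serping1, the C1 inhibitor, by 1.11 (SE 0.14, adjusted p = 0.0026), Serpine2 by 0.88 (SE 0.17, adjusted p = 0.011) and Timp3, the matrix-bound inhibitor, by 0.62 (SE 0.12, adjusted p = 0.0101).

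Of 13 other Adamts proteases tested, 5 rose and 1 fell (median 0.30), beside the same 13.3% of all genes higher and 15.8% lower. Adamts1 rose by 1.47 (SE 0.11, adjusted p = 0.0009), Adamts9 by 0.95 (SE 0.17, adjusted p = 0.0087) and Adamts5, an aggrecanase like Adamts4, by 0.84 (SE 0.16, adjusted p = 0.0092). Adamts10, a protease of the fibrillin microfibrils, fell by 1.11 (SE 0.11, adjusted p = 0.0016). Among 8 Adam sheddases, which release membrane-bound proteins, 2 rose and 0 fell (median 0.26): Adam19 by 0.56 (SE 0.15, adjusted p = 0.03) and Adam17, which releases tumour necrosis factor, by 0.28 (SE 0.08, adjusted p = 0.033). Of 9 activators of these proteases, 3 rose and 0 fell (median 0.29), namely the urokinase receptor Plaur (1.42, SE 0.12, adjusted p = 0.0011), the plasminogen activator Plat (0.83, SE 0.16, adjusted p = 0.0106) and cathepsin G, Ctsg (0.82, SE 0.14, adjusted p = 0.0062).

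**Figure D3:**
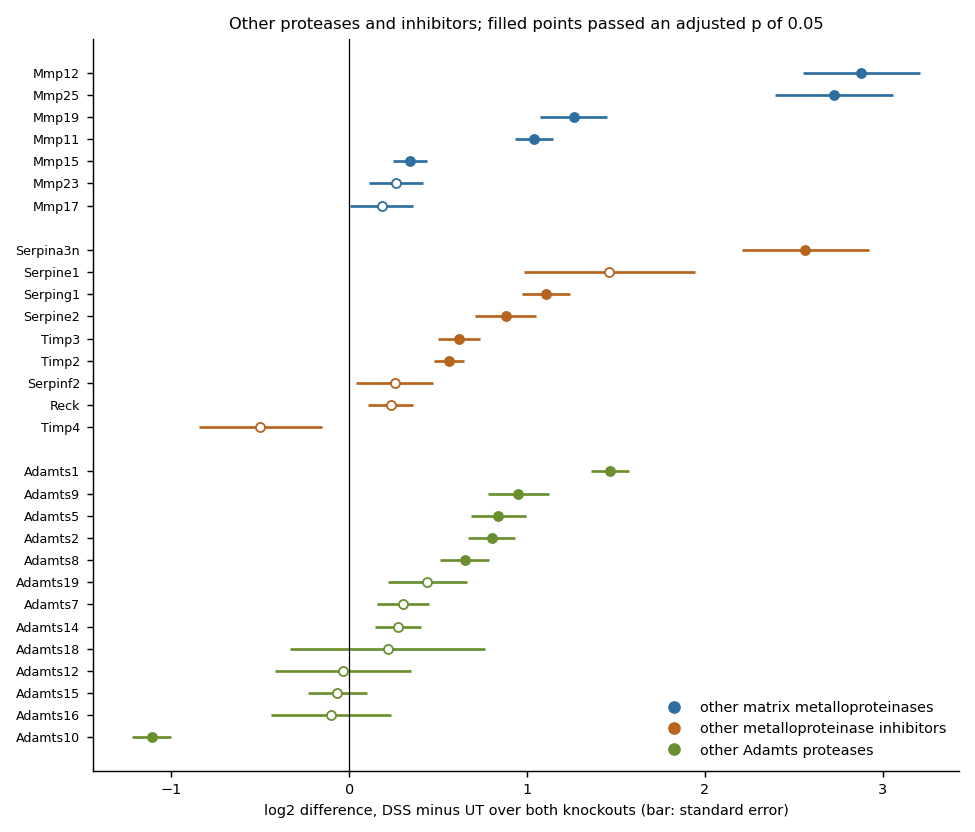
Log2 difference between DSS and UT over both knockouts (x axis) with its standard error for the other matrix metalloproteinases (blue), the other inhibitors (orange) and the other Adamts proteases (green) that were tested, sorted within each list; filled points passed an adjusted p of 0.05 in limma. In the blue list 5 of 7 genes are filled and to the right of 0, and Adamts10 is the filled point to the left of 0, at -1.11.

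Genes of matrix proteins that these enzymes cut were also higher. Of 20 substrates tested, 17 rose and 0 fell over both knockouts (median 0.72), where 13.3% of all genes were called higher. Within ATF6aKO 6 rose (2.88% of all genes higher), and within ATF6bKO 2 rose, near the 5.7% of all genes called higher there. Col18a1, the basement membrane collagen that gives endostatin, rose by 1.26 (SE 0.16, adjusted p = 0.0029), versican (Vcan), a substrate of Adamts4, by 1.21 (SE 0.23, adjusted p = 0.0098), elastin (Eln) by 1.09 (SE 0.32, adjusted p = 0.0402) and the laminin chain Lama4 by 1.03 (SE 0.14, adjusted p = 0.0037). Of 8 cytokines listed as regulators of stromelysins, collagenases or Timp1, 7 rose and 0 fell (median 3.19). Il22 rose at least 3.78-fold (adjusted p = 0.0016), Il6 by 3.75 (SE 0.49, adjusted p = 0.0031), Tnf by 3.22 (SE 0.33, adjusted p = 0.0018) and Il11 by 3.16 (SE 0.19, adjusted p = 0.0007). Il22 passed the filter only through the DSS groups of the knockouts. Of 14 transcription factors, namely Cebpb and factors of the AP-1, ETS and NF-kB families, 6 rose and 1 fell (median 0.25). The Fos-family member Fosl1 rose by 2.17 (SE 0.31, adjusted p = 0.0039), Cebpb by 1.14 (SE 0.12, adjusted p = 0.0019) and Junb by 0.84 (SE 0.16, adjusted p = 0.0099), and the PEA3-type factor Etv4 fell by 1.45 (SE 0.26, adjusted p = 0.0083).

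Most markers of cells known to make these enzymes were called higher over both knockouts, and fewer within each knockout. All 13 neutrophil markers tested rose over both knockouts (median 2.28, with 13.3% of all genes called higher), and their summed level was 0.678 to 1.17 times the 75th percentile on the 4 UT arrays of the knockouts, 3.84 to 5.46 in ATF6aKO DSS and 27.4 on both ATF6bKO DSS arrays. Between 4 and 8 of the 13 were well above background on those UT arrays and 12 or 13 on the DSS arrays. In WT it was 0.701 to 0.910 on the arrays titled UT and 0.683 to 1.91 on those titled DSS, where Mmp8 was not above background. Of 11 monocyte and macrophage markers 10 rose (median 1.29), with sums of 55.9 to 82.7 on the UT arrays and 124.2 to 190.8 on the DSS arrays. Of 12 fibroblast markers, 4 of which are also in the substrate list, 9 rose (median 0.70), with sums of 141.0 to 199.3 against 232.5 to 329.9. In WT the monocyte and macrophage sum was 93.1 to 126.1 on the arrays titled UT and 68.6 to 110.1 on those titled DSS. The fibroblast sum was 127.0 to 224.2 against 111.2 to 132.7. Within ATF6aKO, 4 of 13 neutrophil, 2 of 11 monocyte and macrophage and 2 of 12 fibroblast markers rose, beside 2.88% of all genes. Within ATF6bKO these counts were 9, 9 and 2, beside 5.7%. The part of these cells in the differences of the 10 genes was not tested.

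Of the other marker lists, 6 of 7 endothelial genes rose over both knockouts (median 0.73), 0 of 7 smooth muscle genes were called (median 0.31), 3 of 10 epithelial genes rose (median 0.21), 1 of 6 colonocyte genes fell (median -0.69), 1 of 4 Paneth genes rose (median -0.37) and 0 of 4 mesothelial genes were called (median 0.57). Over all genes 13.3% were called higher and 15.8% lower, and nothing is read from the epithelial, colonocyte and Paneth counts. Of 8 squamous epithelial genes 0 were called over both knockouts. Within ATF6bKO 5 rose, beside 5.7% of all genes called higher there, and the summed level was 3.68 on 1 DSS array and 55.2 on the other. On those 2 arrays the levels of each of the 10 genes differed by less than 1.

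**Figure D4:**
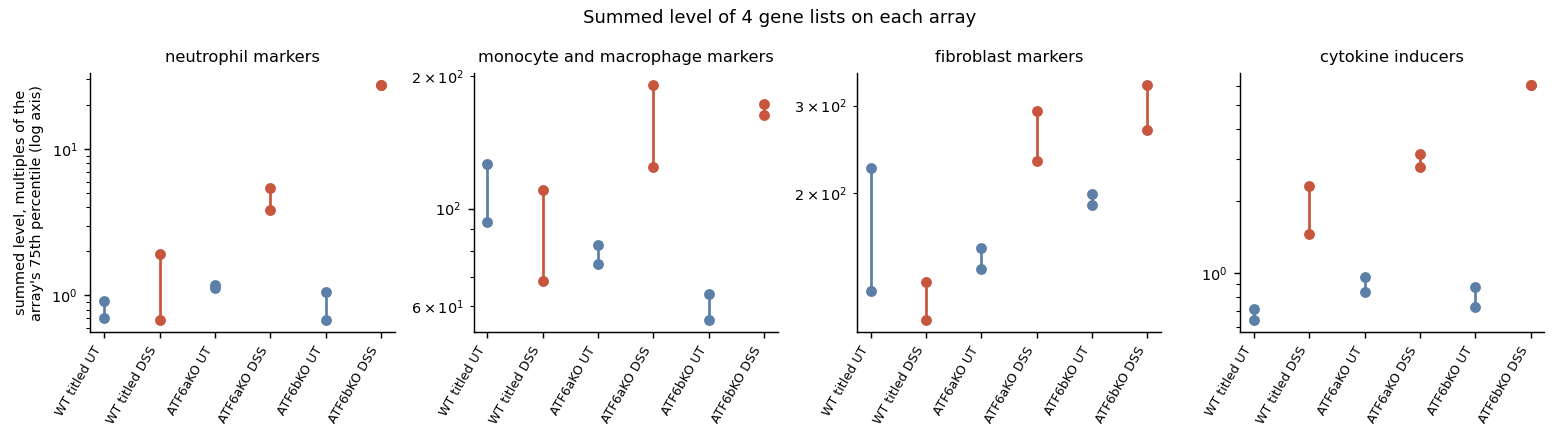
Summed level of 4 gene lists on each array, in multiples of the array's 75th percentile (y axis, log scale), by group (x axis); points are the 2 arrays of a group, blue for UT and red for DSS as titled. Neutrophil markers reach 27.4 on the 2 ATF6bKO DSS arrays, whose points coincide, and stay between 0.683 and 1.91 on the WT arrays titled DSS.

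By likeness of the 6 group means, each centred on its own mean, the 5 genes nearest to Mmp3 among 8790 candidates were Il6, Mmp10, Mmp25, Il11 and Ccr7, with root mean square differences of 0.67 to 0.74 in log2. Those nearest to Mmp8 were Gzma, Sirpb1a, Arg1, Mmp12 and Serpinb2 (0.47 to 0.53), but Mmp8 itself was not well above background in 4 of the 6 groups, so its ranking rests largely on background values. Mmp12, a macrophage elastase that neighbours Mmp13 on chromosome 9, was above background on 3 of 12 arrays. Those nearest to Timp1 were Ccl2, Sphk1, Socs3, Lgi2 and Gem, at smaller differences of 0.14 to 0.23. These are descriptions over 6 groups that share arrays and scan runs.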

How the data were processed

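The 12 deposited scanner files hold Agilent Feature Extraction output (10.7.1.1, per the submitters' processing notes), 1 green channel each, with 45018 spots. The intensity used, gProcessedSignal, is the background-subtracted signal per the file headers, as the authors deposited it, not normalized between arrays. Control spots and 54 to 108 outlier spots per array were left out and spots of a probe averaged, which gave 41174 probes. The level is log2 of the intensity minus the log2 75th percentile of the array. A probe was kept if well above background on both arrays of at least 1 group, per the flags the authors deposited (30428 probes). Accessions were named through the RefSeq table (GRCm38.p6), which gave 61.2% of probes a symbol. Each gene was represented by its probe with the highest mean level, and Mmp9, Mmp14 and Timp1 have a second probe. Group means over all 12 arrays (for the pooled comparison, over the 8 knockout arrays, adjusting for genotype) were fitted with limma 3.58.1 in R 4.3.3 (lmFit, eBayes; Benjamini-Hochberg over 23244 genes), which was tested on simulated data.

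The deposited series value table holds log2 values of the same arrays, centred per probe within 0.001 for 41267 of 41268 probes; its direction is that of the log2 signal. In 8 of its 12 columns the values are those of another array: the 4 WT columns hold the arrays of the other WT group, and the 2 ATF6aKO arrays of each group are exchanged. So titles with scanner files and descriptions with the table put the same WT arrays in the same treatment. Its column medians run from -0.46 to 0.24, and the authors' scaling of the table remains unknown here. For its use as an alternative, each column was assigned to the array whose values it holds. Other alternatives were normexp on gMedianSignal and gBGMedianSignal (offset 50; gMeanSignal was not used here), quantile and median scaling, other filters and probe rules, and leaving out each array.

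The genes, gene lists and tests were chosen with earlier results of these data known. The 10 genes were always named; from each other list, up to 4 genes with the largest change over both knockouts among those called and well above background on every array of the higher group; for Mmp3, Mmp8 and Timp1, the 5 genes with the nearest group means, passing over unnamed models. The replicate numbers did not pair the samples: same-numbered UT and DSS arrays had deviations correlated at 0.011 (WT), 0.075 (ATF6aKO) and -0.018 (ATF6bKO).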

Additional observations from a re-analysis of the deposited data

Results flagged for a closer look

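The response to DSS averaged over the 2 knockouts was also set against the WT difference, in a test added after the data had been seen. With WT by titles, 5 of the 10 genes were called (19.9% of all genes). The knockout response was the more positive for Mmp10 by 2.19 (adjusted p = 0.0222), Mmp13 by 1.80 (adjusted p = 0.023) and Timp1 by 1.32 (adjusted p = 0.0489). The measured difference was 3.53 for Mmp8 (adjusted p = 0.011) and 1.92 for Mmp7 (adjusted p = 0.0169), but neither size can be relied on: Mmp8 was not well above background on any WT or UT array, and Mmp7 was on only 3 of the 8 knockout arrays. With WT by descriptions, 9 of the 10 were called (36.7% of all genes), Mmp10 by 5.15, Mmp13 by 3.03 and Timp1 by 3.52, and the measured Mmp7 difference turned to -3.64. For Mmp10, Mmp13 and Timp1 the sign was the same under both readings of the WT labels. Their WT differences were positive by titles, and the reading by descriptions adds them where that by titles subtracts them. The second sign therefore follows from the first and is no further test. The Mmp8 difference was 0.64 (adjusted p = 0.13) by titles with normexp background correction, and the Mmp10 difference 1.07 (adjusted p = 0.0686). The Timp1 call by titles was lost under 10 of 12 omissions of 1 array (1.09 to 1.56), that of Mmp13 under 4 (1.49 to 2.11), that of Mmp10 under 2 (1.83 to 2.54) and that of Mmp7 under 1 (1.68 to 2.16). Genotype and scan run cannot be told apart in this comparison.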

How the results depend on the processing

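The number of the 10 genes called kept within 1.5 times its main value under every scaling, filter and probe rule tried, apart from the following. With only the 4 arrays compared, it was 2 in place of 8 in ATF6aKO and 3 in place of 6 in WT, where fewer arrays estimate the spread. With 8 arrays and treatment as a term it was 2 in place of 7 for ATF6bKO against WT, and with normexp 5 in place of 0 for ATF6aKO against ATF6bKO. Leaving out 1 array gave 1 to 8 in ATF6aKO, 5 to 8 in ATF6bKO, 4 to 6 in WT, 6 to 8 over both knockouts, 0 to 0 for the difference of responses, 5 to 6 and 5 to 7 for ATF6aKO and ATF6bKO against WT, and 0 to 1 between the knockouts. Under the descriptions, the WT differences were -3.07 for Mmp3, -1.48 for Mmp10, -0.62 for Mmp13, 0.24 for Mmp8, -0.68 for Mmp2, 0.20 for Mmp9, 2.78 for Mmp7, -1.31 for Mmp14, -1.10 for Timp1 and -2.82 for Adamts4. With normexp, Mmp7 was 0.031 in ATF6aKO and 0.14 over both knockouts, and with the mean of its probes Mmp9 was 0.29 in WT. Omissions gave -0.17 to 0.71 for Mmp7 and -0.29 to 0.81 for Adamts4 in ATF6bKO, and -0.84 to 0.36 for Mmp8 and -0.80 to 0.39 for Mmp9 in WT. Without ATF6bKO UT replicate 1 Mmp7 was -0.17 and Adamts4 -0.29; Mmp8 in WT was 0.36 without titled DSS replicate 1 and 0.19 without titled UT replicate 1, and Mmp9 0.39 without titled DSS replicate 2 and 0.0047 without titled UT replicate 2. The causes were not tested. With the replicate block, 7 of the 10 genes were called in ATF6aKO, Mmp2 being lost (adjusted p = 0.0549), and no other call on the 10 genes changed.

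Over all genes, with every array kept, counts moved by more than 1.5 times as follows: in ATF6aKO, 1472 became 693 with no filter, 2913 with only the 8 knockout arrays and 563 with only the 4; in ATF6bKO, 3002 became 1797 with normexp, 4626 with the 8 and 1801 with the 4; in WT, 7381 became 636 with the 4; for ATF6bKO against WT, 11750 became 6808 with treatment as a term; between the knockouts, 1274 became 10055 with normexp, 579 with no filter and 2794 with the 8; and for the difference of responses, 0 became 5, 1 and 4 with quantile scaling, median scaling and the 8. Leaving out 1 array moved the all-gene count to 183 to 445 in ATF6aKO without one of its own arrays and 3464 without a WT array titled UT; to 1089 to 1833 in ATF6bKO without one of its own arrays and 5282 without a WT array titled UT; to 2983 and 3042 in WT without an array titled DSS; to 3858 and 4457 over both knockouts without ATF6aKO DSS replicate 1 or ATF6bKO DSS replicate 2; and to 83 for the difference of responses without ATF6bKO DSS replicate 1 and 4 without a WT array titled DSS. Between the knockouts it moved to 199 to 704 without a knockout array, except 1989 without ATF6bKO UT replicate 1, and to 3641 without a WT array titled UT. The median of all genes shifted by up to 0.364 with normexp (ATF6bKO against WT) and by -0.147 with median scaling in ATF6aKO. Mmp8 and Mmp7 are near background, where signal limits what can be measured.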
